A study of Mus musculus with 69 samples.

Results

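The kidneys of young NZB/W mice were compared between ZT4, 4 h after lights on and early in the rest phase of the mouse, and ZT16, early in its active phase (Zeitgeber time, ZT, counts hours from lights on in a 12 h light and 12 h dark cycle). The libraries were chosen by their labels, as those with diagnosis Young and time ZT4 (4 libraries) or ZT16 (4 libraries), which makes 8 of the 69 libraries of the series. NZB/W is the F1 hybrid of the NZB and NZW strains, in which females develop lupus nephritis with age. The young mice were 12 weeks old and were harvested at 6 time points 4 h apart, of which ZT4 and ZT16 are 12 h from each other. The nephritic mice that serve here as a comparison were older and were harvested 2 to 3 weeks after proteinuria of 300 mg/dl set in, and 4 of them were taken at ZT4 and 3 at ZT16. Each library came from the total RNA of a whole, perfused kidney and held 150 bp paired-end reads per the labels. Neither the cages nor the day of harvest were given for the 2 time points, so time of day and group of harvest cannot be told apart.

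Most cells carry a molecular clock in which the transcription factors Bmal1 (gene Arntl) and Clock or Npas2 switch on the Per and Cry genes, whose proteins then hold back Bmal1 and Clock. A side loop of nuclear receptors, the repressors Rev-erbα and Rev-erbβ (Nr1d1 and Nr1d2) against the Ror activators, sets the level of Arntl, and output factors such as Dbp and its opponent Nfil3 pass the rhythm on to metabolic and transport genes. Daily signals reach the kidney too, among them feeding, body temperature and the adrenal glucocorticoid corticosterone, which in mice rises towards the dark phase.

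The 8 libraries held 25617028 to 33912836 counts each. Levels are given as CPM, counts scaled by edgeR's TMM method to a common library size of 1e6. The libraries of a time point are in the order of replicates 1 to 4. A log2 change is always ZT16 minus ZT4, so that 1 is a doubling at ZT16. It was tested with edgeR's quasi-likelihood F test in a fit of all 30 young libraries, and p-values were adjusted over the 16521 genes tested by the method of Benjamini and Hochberg. A gene was called at an adjusted p of at most 0.05.

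Kidney markers were high in all 8 libraries, with Umod of the thick ascending limb at 2421 to 3892 CPM and Slc34a1 of the proximal tubule at 3906 to 6469.9 CPM, but markers of tissues that lie near the kidney stood high in some of them. The summed level of 11 adrenal markers was 6.38 to 8.92 CPM in the 4 ZT4 libraries, but 2134 CPM in ZT16 replicate 1 and 2018 CPM in ZT16 replicate 4, against 10.9 CPM in replicate 2 and 75.4 CPM in replicate 3. The sum of 10 hepatocyte markers was 52.8, 362, 334 and 2474 CPM at ZT4 and 12608, 114, 11924 and 1836 CPM at ZT16, so that ZT16 replicates 1 and 3 stood highest. The sum of 10 adipocyte markers was 148 to 352 CPM at ZT4 and 438 to 830 CPM at ZT16 without overlap. Among these markers 10 of 11 adrenal, 7 of 10 adipocyte and 0 of 10 hepatocyte genes were called higher at ZT16 with edgeR's quasi-likelihood test, and the 10 hepatocyte genes had log2 changes of 2.77 to 3.96, of which 5 had an unadjusted p under 0.05, 3 were called by DESeq2 and 0 by limma. ZT16 replicate 2 was low on the adrenal and hepatocyte lists, and its log2 CPM correlated with those of the ZT4 libraries at r of 0.978 to 0.988 across genes. These values were above the 0.953, 0.965 and 0.975 it had with ZT16 replicates 1, 3 and 4. Genes are not independent replicates, and these r are descriptions.

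**Figure D1:**
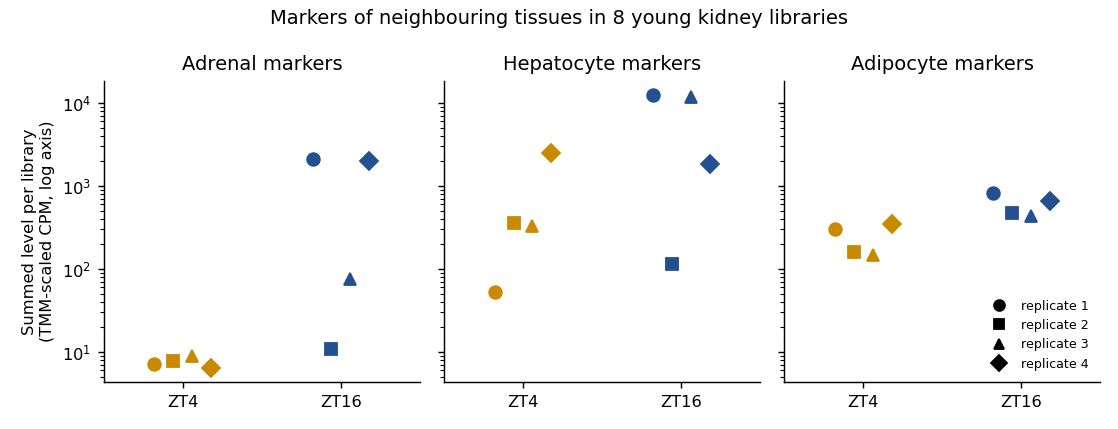
Summed level of adrenal, hepatocyte and adipocyte markers (TMM-scaled CPM, log axis) in each of the 8 young libraries, ZT4 in orange and ZT16 in blue, with a symbol for each replicate number. ZT16 replicates 1 and 4 stand at 2134 and 2018 CPM for adrenal markers, and ZT16 replicates 1 and 3 at 12608 and 11924 CPM for hepatocyte markers.

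In all, 3022 of 16521 genes were called (18.3%), 1574 higher at ZT16 (9.53%) and 1448 higher at ZT4 (8.76%). All counts of list members below are to be read beside these shares. The groups of 4 libraries did not overlap for 2325 of the 3022. Calling a gene itself favours groups that do not overlap, and the share over all genes tested is not given here. Changes of at least 2-fold were seen for 463 of the genes higher at ZT16 and for 59 of those higher at ZT4, and the median log2 change of the called genes was 0.53 and -0.34. Because these marker sums differed, the contrast of ZT16 with ZT4 was also fitted in 3 further settings, chosen after these libraries had been seen: without ZT16 replicates 1 and 4, without ZT16 replicates 1 and 3, and with the log2 sums of the 3 marker lists as covariates. In these settings 680, 668 and 875 of the 3022 genes were still called in the same direction, while 99.1%, 99.6% and 98.3% of the 3022 log2 changes kept their sign. A call is described as held where it remained in all 3, which was true of 447 genes (14.8% of the calls), 261 higher at ZT16 (1.58% of genes tested) and 186 higher at ZT4 (1.13%). In the strictest setting ZT16 replicate 2 stood alone and was assumed to vary like the other groups. Held in this setting as well were 104 genes, 81 higher at ZT16 (0.49%) and 23 higher at ZT4 (0.139%). Settings with fewer libraries also have less power, so a call that was not held is not shown to come from other tissues. In bulk tissue, fewer cells of a type and less RNA per cell cannot be told apart.

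The Rev-erb repressors were high at ZT4, and the Per and Cry repressors were high at ZT16. Of 22 core clock genes, 10 were called higher at ZT16 and 3 higher at ZT4, with a median log2 change of 0.38 beside 0.0071 for all genes tested, and 6 and 2 of these calls were held. Nr1d1 (Rev-erbα) had the largest fall among called genes without overlap and with at least 1 CPM, at 103, 99.3, 104 and 104 CPM at ZT4 and 7.29, 5.43, 5.8 and 5.33 CPM at ZT16 (log2 change -4.10, SE 0.25, adjusted p = 1.4e-11). The ZT4 libraries lay close to each other and far above every ZT16 library. Its sister repressor Nr1d2 (Rev-erbβ) was 78, 98.5, 93.5 and 97.3 CPM at ZT4 and 44.8, 52.3, 46.2 and 52 CPM at ZT16 (log2 change -0.91, SE 0.10, adjusted p = 1.6e-06), again without overlap. Of their opponents, the activator Rora rose at ZT16 (log2 change 0.39, SE 0.11, adjusted p = 0.018). Rorb, near 0 in the kidney, did not pass (adjusted p = 0.43).

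Each of the 5 Per and Cry genes was higher at ZT16, with a median log2 change of 2.16. Cry1, a repressor of Bmal1 and Clock, was 2.5, 2.32, 2.54 and 2.78 CPM at ZT4 and 30.3, 28.5, 32.2 and 28.7 CPM at ZT16 (log2 change 3.56, SE 0.16, adjusted p = 1.2e-14). Within each time the libraries were close to each other, and the groups lay far apart. Per2 was 13.3, 12, 14.3 and 12.6 CPM at ZT4 and 63.2, 62.6, 59 and 60.4 CPM at ZT16 (log2 change 2.23, SE 0.17, adjusted p = 1.3e-09), as tight within each group. Per1, which also answers to glucocorticoids and cAMP, was 12, 21.6, 22 and 20.6 CPM at ZT4 and 52.6, 78.1, 104 and 105 CPM at ZT16 (log2 change 2.16, SE 0.32, adjusted p = 6.6e-05). Here the spread was wider, with replicate 1 lowest in each group, but the groups did not overlap. Cry2 (log2 change 0.52, SE 0.09, adjusted p = 3.2e-04) and Per3 (log2 change 0.52, SE 0.11, adjusted p = 0.0029) changed by less than 1.5-fold, and the call of Per3 was the only one of the 5 that was not held.

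The activators differed little between the 2 times. Arntl (Bmal1) was 15, 17.4, 18.1 and 13.4 CPM at ZT4 and 21.1, 22.4, 21.9 and 21.3 CPM at ZT16 (log2 change 0.44, SE 0.14, adjusted p = 0.035). This small rise was not held. Clock was 54.6 ± 3.27 CPM at ZT4 and 55 ± 4.49 CPM at ZT16 (SD, n = 4 each; log2 change 0.0088, SE 0.11, adjusted p = 0.97). Npas2 was 11.3 ± 0.911 CPM at ZT4 and 9.21 ± 1.11 CPM at ZT16 (log2 change -0.30, SE 0.14, adjusted p = 0.12), and neither gene passed. Npas2 and Arntl varied over the day in a way that ZT4 and ZT16 do not show. Mean Npas2 over ZT0, 4, 8, 12, 16 and 20 was 27.7, 11.3, 0.966, 1.08, 9.21 and 28.8 CPM. Mean Arntl was 37.7, 16, 1.1, 3.04, 21.7 and 41.8 CPM. ZT4 fell on the descent and ZT16 on the ascent of each. Ciart, a repressor of Bmal1 and Clock whose means were 0.913, 1.46, 20.6, 12.2, 2.07 and 1.38 CPM, peaked at ZT8 and did not pass either (log2 change 0.50, SE 0.23, adjusted p = 0.12). Among the regulators of protein stability Usp2, a deubiquitinase, was 66.1, 60.7, 60.7 and 74.8 CPM at ZT4 and 98.6, 130.2, 135 and 156 CPM at ZT16 (log2 change 0.99, SE 0.17, adjusted p = 2.2e-04) and was held in all 4 settings.

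Output factors showed the same contrast on opposite sides. Dbp, an activator at D-box sites, was 46.4, 46.4, 46.3 and 49.1 CPM at ZT4 and 10.5, 12.9, 10.1 and 13.8 CPM at ZT16 (log2 change -1.99, SE 0.18, adjusted p = 4.9e-08). Nfil3 (E4BP4), which represses the same sites, was 8.79, 6.45, 6.68 and 7.15 CPM at ZT4 and 34.5, 36.9, 46 and 46.9 CPM at ZT16 (log2 change 2.5, SE 0.16, adjusted p = 3.8e-11). Neither gene overlapped between the groups and both were held in all 4 settings. The other PAR bZIP factors Tef (log2 change 0.18, SE 0.087, adjusted p = 0.14) and Hlf (log2 change 0.13, SE 0.091, adjusted p = 0.33) did not pass. The means of Dbp over the day were 3.44, 47.1, 210.2, 80.3, 11.8 and 5.05 CPM and those of Tef 162, 266, 549.9, 508, 302 and 208 CPM, so both peaked at ZT8, between the times compared. Of the 12 output factors 4 were higher at ZT16 and 1 at ZT4, and these 5 calls were held. They include Wee1, a kinase that holds back mitosis (16.8, 15.3, 14.6 and 14.6 CPM at ZT4 and 20.6, 31.4, 26.2 and 29.9 CPM at ZT16), Tspan4, a tetraspanin (0.56, SE 0.081), and Nampt, the rate-limiting enzyme of NAD salvage (0.54, SE 0.082). Exons of Nr1d1 and Thra share 263 bases on opposite strands and those of Dbp and Sphk2 share 539, and the strand setting of the counting was not given in the sources used here, so reads of these pairs may be mixed.

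**Figure D2:**
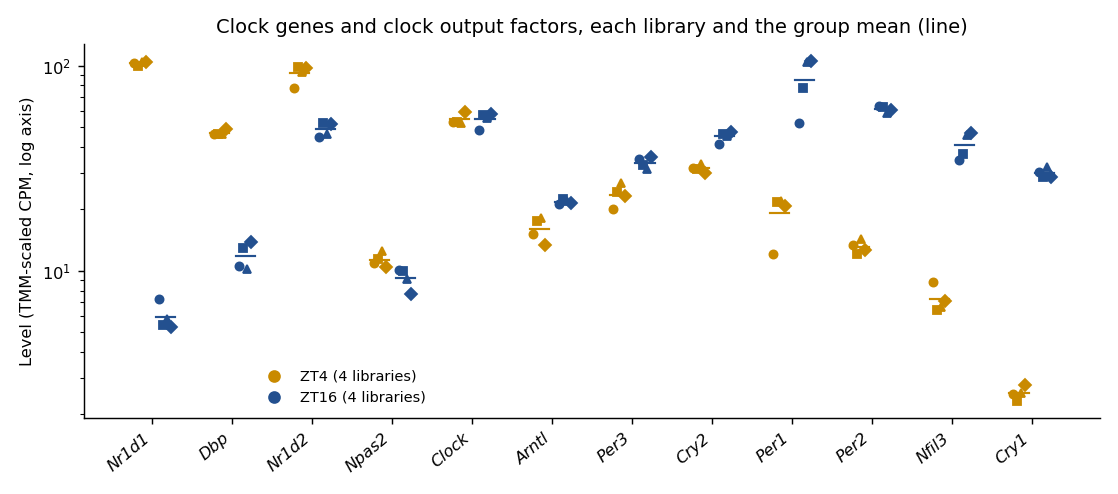
Level of 12 clock and clock output genes (TMM-scaled CPM, log axis) in each ZT4 (orange) and ZT16 (blue) library, with a symbol for each replicate number and a line at the group mean. Nr1d1 falls from 99.3 to 104 CPM at ZT4 to 5.33 to 7.29 CPM at ZT16, while Cry1 rises from 2.32 to 2.78 CPM to 28.5 to 32.2 CPM.

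Promoter sequence was searched for the sites of the clock loops: the E-box bound by Bmal1 and Clock (CACGTG), the RORE bound by Rev-erb and Ror (TAGGTCA or its reverse complement) and the D-box bound by Dbp and Nfil3 (TTATGTAA or TTACGTAA). The window was the 250 bases before the start in RefSeq of GRCm38.p6, and capitals in the sequences mark the site found. Cry1 (chr10:85185055-85185304, minus strand), Per1 (chr11:69098699-69098948, plus strand), Nfil3 (chr13:52981040-52981289, minus strand) and Fabp7 (chr10:57784673-57784922, plus strand) are shown since they are among the genes that moved most, were held in all 4 settings and hold a site. Genes in which no site was found are not shown, among them Nr1d1, Dbp and Per2, which were also held in all 4 settings.
Cry1: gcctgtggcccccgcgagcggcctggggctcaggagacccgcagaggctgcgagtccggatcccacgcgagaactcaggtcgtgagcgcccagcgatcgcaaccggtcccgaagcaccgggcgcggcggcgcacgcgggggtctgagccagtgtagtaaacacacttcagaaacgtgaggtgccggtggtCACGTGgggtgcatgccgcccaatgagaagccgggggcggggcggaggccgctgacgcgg
Per1: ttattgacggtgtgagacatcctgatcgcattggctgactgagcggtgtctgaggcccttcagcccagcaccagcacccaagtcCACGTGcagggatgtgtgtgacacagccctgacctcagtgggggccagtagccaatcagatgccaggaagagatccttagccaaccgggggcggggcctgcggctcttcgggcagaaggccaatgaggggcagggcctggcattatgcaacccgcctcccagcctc
Nfil3: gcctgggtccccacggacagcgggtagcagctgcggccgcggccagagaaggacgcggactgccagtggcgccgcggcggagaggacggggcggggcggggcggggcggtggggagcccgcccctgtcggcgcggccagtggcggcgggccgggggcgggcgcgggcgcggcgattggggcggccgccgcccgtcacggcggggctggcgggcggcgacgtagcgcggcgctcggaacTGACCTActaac
Fabp7: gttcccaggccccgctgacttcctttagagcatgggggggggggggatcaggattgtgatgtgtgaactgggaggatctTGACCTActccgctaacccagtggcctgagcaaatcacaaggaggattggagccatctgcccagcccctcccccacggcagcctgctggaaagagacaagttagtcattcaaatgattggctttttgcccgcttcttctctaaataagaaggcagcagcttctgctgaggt
The E-box of Cry1 lies 60 bases and that of Per1 166 bases before the start, and the RORE of Nfil3 12 and that of Fabp7 171 bases before it. An E-box was found in 6.02% of all 32851 promoters of this length, a RORE in 2.23%, and the D-box forms in 0.819% and 0.113%. Among the 12592 genes tested that had a promoter sequence, 9.13% held an E-box, against 8.58% of those called higher at ZT16 and 11.8% of those called higher at ZT4. Among held calls the order turned, with an E-box in 32 of 209 genes higher at ZT16 (15.3%) and 9 of 141 higher at ZT4 (6.38%). These are counts of letters in a short window and were not tested.

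Genes that answer to glucocorticoids rose together at ZT16. Of 20 known targets 11 were called higher at ZT16 and 0 higher at ZT4 by edgeR, DESeq2 or limma (1 at an unadjusted p under 0.05), with a median log2 change of 1.04, and 8 of the 11 calls were held. Tsc22d3 (GILZ), a leucine zipper protein induced by glucocorticoids, was 25.8, 25.3, 23.1 and 24.7 CPM at ZT4 and 99.3, 137, 132 and 100.2 CPM at ZT16 (log2 change 2.24, SE 0.14, adjusted p = 1.7e-11). Sgk1, the kinase that raises sodium channel activity in the distal nephron, was 58.9, 84.7, 74.7 and 71.1 CPM at ZT4 and 306, 397, 390.2 and 295 CPM at ZT16 (log2 change 2.26, SE 0.22, adjusted p = 1.1e-07). Fkbp5, a co-chaperone that dampens the receptor, was 32, 21.9, 20.003 and 28.4 CPM at ZT4 and 56.8, 73.1, 102 and 79.8 CPM at ZT16 (log2 change 1.61, SE 0.20, adjusted p = 5.1e-06). In these 3 genes each ZT16 library was above each ZT4 library. The adrenal sum was high in ZT16 replicates 1 and 4, and its part in the values of this list was not tested beyond the settings above.

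The remaining held targets were Per1, Cdkn1a, Dusp1, Zbtb16 and Ddit4, of which the last pair is named after its values were seen. Cdkn1a, the cell cycle inhibitor p21, was 9.73, 8.76, 9.11 and 10.5 CPM at ZT4 and 15, 18.6, 23 and 16 CPM at ZT16 (log2 change 0.93, SE 0.16, adjusted p = 3.9e-04). Zbtb16 (PLZF), a transcriptional repressor, was 1.49, 1.28, 1.06 and 1.25 CPM at ZT4 and 6.15, 5.43, 3.85 and 3.65 CPM at ZT16 (log2 change 1.90, SE 0.31, adjusted p = 1.7e-04). Ddit4 (REDD1), an inhibitor of mTORC1, was 27.4, 18.2, 20.9 and 20.2 CPM at ZT4 and 35.7, 66.6, 95.2 and 59.96 CPM at ZT16 (log2 change 1.57, SE 0.25, adjusted p = 1.2e-04). For Zbtb16 and Ddit4 the groups did not overlap, although Ddit4 in ZT16 replicate 1 stood only just above the highest ZT4 library. Lcn2, Sult1a1 and Map3k6 were called but not held, and Lcn2 was highest in ZT16 replicates 1 and 3, the libraries with the highest hepatocyte sums (2.94, 3.16, 4.02 and 2.81 CPM at ZT4 and 10.3, 4.89, 16.5 and 4.29 CPM at ZT16). The glucocorticoid receptor itself, Nr3c1, was 108 ± 6.97 CPM at ZT4 and 99.2 ± 12 CPM at ZT16 (SD, n = 4 each) and did not pass (log2 change -0.13, SE 0.10, adjusted p = 0.4). Klf9, Mt1 and Mt2 of the same list did not pass either, so the rise was not shared by every target.

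Of the held genes of this group, 3 with an E-box, a cAMP element (CRE, TGACGTCA) or a full glucocorticoid element (GRE, AGAACA and TGTTCT with 3 bases between them) in the 250 bases before the start are printed, with the site in capitals: Sgk1 (chr10:21993640-21993889, plus strand, which is 1 of several starts of this gene), Fkbp5 (chr17:28486150-28486399, minus strand) and Dusp1 (chr17:26508473-26508722, minus strand).
Sgk1: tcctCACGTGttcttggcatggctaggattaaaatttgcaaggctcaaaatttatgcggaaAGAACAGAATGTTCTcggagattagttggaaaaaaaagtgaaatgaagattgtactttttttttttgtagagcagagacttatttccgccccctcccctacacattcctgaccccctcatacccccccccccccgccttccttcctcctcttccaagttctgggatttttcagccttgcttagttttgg
Fkbp5: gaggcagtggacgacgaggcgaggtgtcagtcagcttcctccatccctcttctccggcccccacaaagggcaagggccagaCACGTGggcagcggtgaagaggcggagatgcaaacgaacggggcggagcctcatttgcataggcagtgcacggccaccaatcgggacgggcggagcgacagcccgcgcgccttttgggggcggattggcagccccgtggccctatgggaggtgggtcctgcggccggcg
Dusp1: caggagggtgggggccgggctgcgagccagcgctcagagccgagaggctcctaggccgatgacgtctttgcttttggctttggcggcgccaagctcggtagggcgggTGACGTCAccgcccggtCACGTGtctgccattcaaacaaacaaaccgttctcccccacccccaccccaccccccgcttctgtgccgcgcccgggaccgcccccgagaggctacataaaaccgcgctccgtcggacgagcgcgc
Sgk1 holds an E-box 246 bases and the GRE 189 bases before the start, Fkbp5 an E-box at 169, and Dusp1 a CRE at 143 and an E-box at 126. No site was found for Tsc22d3, which was also held. The GRE was found in 3 of 32851 promoters (0.00913%) and the CRE in 1.55%. Among genes tested the GRE was in the window of 2, Sgk1 and Acnat2, an acyltransferase of peroxisomes, and both were called higher at ZT16 and held.

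Immediate early genes, which cells switch on within minutes of a stimulus, were also higher in the early active phase. Of 26 members 13 were called higher at ZT16 (median log2 change 0.97), and 8 were held. On the ZT4 side the number was 0 by edgeR, DESeq2 and limma and at an unadjusted p under 0.05. The orphan nuclear receptor Nr4a1 was 5.63, 9.61, 10.5 and 14.9 CPM at ZT4 and 38.8, 80.1, 165 and 165 CPM at ZT16 (log2 change 3.46, SE 0.69, adjusted p = 0.0014), and its relative Nr4a2 was 1.67, 1.31, 1.44 and 1.01 CPM at ZT4 and 4.08, 4.04, 14.2 and 8.04 CPM at ZT16 (log2 change 2.48, SE 0.46, adjusted p = 6.5e-04). Both rose in every ZT16 library, but by amounts that differed widely between mice. Dusp1, the phosphatase that ends MAP kinase signals and a member of both lists, was 76.4, 125, 129 and 126 CPM at ZT4 and 214, 409, 385 and 274 CPM at ZT16 (log2 change 1.49, SE 0.30, adjusted p = 0.0016). Klf2 rose more evenly (14.5, 16.1, 17.2 and 15.5 CPM at ZT4 and 32, 23.9, 43.8 and 29.4 CPM at ZT16; log2 change 1.03, SE 0.17, adjusted p = 1.6e-04). Fos (log2 change 1.38, SE 0.51, adjusted p = 0.06), Jun and Egr1 did not pass, and Fos was 8.85, 22.1, 21.7 and 17.1 CPM at ZT4 and 23.8, 53.3, 77 and 28.1 CPM at ZT16. Sik1, a kinase induced by cAMP and salt load and named after its values were seen, was 59, 81.3, 86.4 and 63.1 CPM at ZT4 and 211, 189.8, 239.8 and 228 CPM at ZT16 (log2 change 1.59, SE 0.18, adjusted p = 1.4e-06) and was held in all 4 settings. Heat shock genes, by contrast, gave 1 call among 20 (Dnajb4, 0.64, SE 0.16) and a median of -0.0037, and the 5 cold-inducible genes gave 0 by edgeR's quasi-likelihood test and limma, but 1 higher at ZT4 at an unadjusted p under 0.05 and by DESeq2. Cirbp, an RNA-binding protein induced by cooling, was 79.6, 109.7, 116 and 78.9 CPM at ZT4 and 71, 75.3, 67.6 and 74.7 CPM at ZT16 (log2 change -0.41, SE 0.15, adjusted p = 0.051).

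Many genes of fatty acid oxidation were higher at ZT16. Of 58 genes tested, 16 were higher at ZT16 (27.6%) and 0 at ZT4 with edgeR (median log2 change 0.16), and 8 of the calls were held. On the ZT4 side DESeq2 and limma called 1 each, and 4 had an unadjusted p under 0.05 with edgeR. Slc25a20, which carries acylcarnitines into mitochondria, was 60.6, 62.5, 58.9 and 55.7 CPM at ZT4 and 93.8, 102, 98.2 and 97.5 CPM at ZT16 (log2 change 0.72, SE 0.11, adjusted p = 4.7e-05). Acadl, the long-chain acyl-CoA dehydrogenase, was 243, 269.5, 262 and 252 CPM at ZT4 and 349.9, 358, 338 and 345 CPM at ZT16 (log2 change 0.44, SE 0.065, adjusted p = 6.2e-05). In neither did the groups overlap. Cyp4a31, of the omega-hydroxylase family, was 235, 248, 248 and 215 CPM at ZT4 and 399, 424, 428 and 391 CPM at ZT16 (log2 change 0.80, SE 0.10, adjusted p = 1.3e-05), and these 3 genes were held in all 4 settings. The peroxisomal enzymes had 6 calls among 15, the mitochondrial enzymes 3 among 15 and the regulators 1 among 6. Ppara, the receptor that switches on these genes, was 115 ± 21.2 CPM at ZT4 and 102 ± 19.9 CPM at ZT16 (SD, n = 4 each; log2 change -0.17, SE 0.15, adjusted p = 0.47). Cpt1a, which controls entry into mitochondria, was 363 ± 33.9 CPM at ZT4 and 339 ± 73.9 CPM at ZT16 (log2 change -0.098, SE 0.13, adjusted p = 0.62), and neither passed. Both had their highest mean at ZT8, with means over the 6 times of 104, 115, 199.7, 152, 102 and 94.7 CPM for Ppara. Those of Cpt1a were 336, 363, 476, 461, 339 and 312 CPM.

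Glucose metabolism was split. Igfbp1, an insulin-repressed binding protein of IGF, was 55.1, 104, 103 and 69.4 CPM at ZT4 and 32.4, 26.4, 36.1 and 24.3 CPM at ZT16 (log2 change -1.47, SE 0.21, adjusted p = 2.8e-05). It was higher in every ZT4 library, with replicates 2 and 3 almost alike and highest. G6pc, the last enzyme of gluconeogenesis, was 760.0, 773, 746 and 538 CPM at ZT4 and 709, 1354, 1066 and 1211 CPM at ZT16 (log2 change 0.62, SE 0.16, adjusted p = 0.011). ZT16 replicate 1 lay inside the ZT4 range. Pck1, the rate-limiting enzyme of the same pathway, was 3133, 3143, 3214 and 3783 CPM at ZT4 and 4031, 4878, 5268 and 5629 CPM at ZT16 (log2 change 0.58, SE 0.18, adjusted p = 0.028), not held. Idh1, which makes NADPH in the cytosol, went the other way, at 792, 733, 687 and 854 CPM at ZT4 and 439, 471, 464 and 501 CPM at ZT16 (log2 change -0.71, SE 0.096, adjusted p = 2.0e-05), without overlap and held in all 4 settings. In glycolysis 3 of 20 genes were higher at ZT16 and 5 at ZT4, and 0 were held. Among the 3, Hk2 was 2.62, 1.72, 1.44 and 5.07 CPM at ZT4 and 9.91, 4.66, 7.17 and 9.75 CPM at ZT16. Of 9 glucose transporters 3 were higher at ZT4 and 0 at ZT16 by edgeR, DESeq2 or limma (1 at an unadjusted p under 0.05). Slc2a2 (GLUT2), the basolateral exit of the proximal tubule, was 145, 173, 159.8 and 188 CPM at ZT4 and 87.5, 110.0, 111 and 102 CPM at ZT16 (log2 change -0.70, SE 0.12, adjusted p = 2.4e-04). Slc2a5 (GLUT5), a fructose carrier, was 99.5, 125, 119 and 97.6 CPM at ZT4 and 55.8, 71.7, 73.4 and 72.2 CPM at ZT16 (log2 change -0.69, SE 0.10, adjusted p = 7.5e-05). Both were held, whereas the call of Slc5a1 (SGLT1, -0.27, SE 0.092) was not. Slc5a2 (SGLT2) was 452, 361, 361 and 396 CPM at ZT4 and 201, 350.0, 299 and 288 CPM at ZT16 and missed the threshold (log2 change -0.46, SE 0.17, adjusted p = 0.06).

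Sterol synthesis leaned to the rest phase, with 5 of 24 genes higher at ZT4 and 1 at ZT16 (median log2 change -0.065). Of all genes tested, 8.76% were higher at ZT4 and 9.53% at ZT16. Srebf2, the factor that induces the pathway, was 158, 129, 138 and 152 CPM at ZT4 and 88.9, 110.0, 117 and 106 CPM at ZT16 (log2 change -0.45, SE 0.083, adjusted p = 6.3e-04). The groups did not overlap, and this call and that of Nsdhl (-0.50, SE 0.089), an enzyme of the late steps, were among the 3 on the ZT4 side that were held. Of 20 lipogenesis genes 3 were called, all higher at ZT16, and Lpin2, a phosphatidate phosphatase, was held (log2 change 0.31, SE 0.065, adjusted p = 0.002). Fasn was 364, 199.6, 195 and 545 CPM at ZT4 and 794, 352, 435 and 453 CPM at ZT16 and did not pass (log2 change 0.64, SE 0.38, adjusted p = 0.24).

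**Figure D3:**
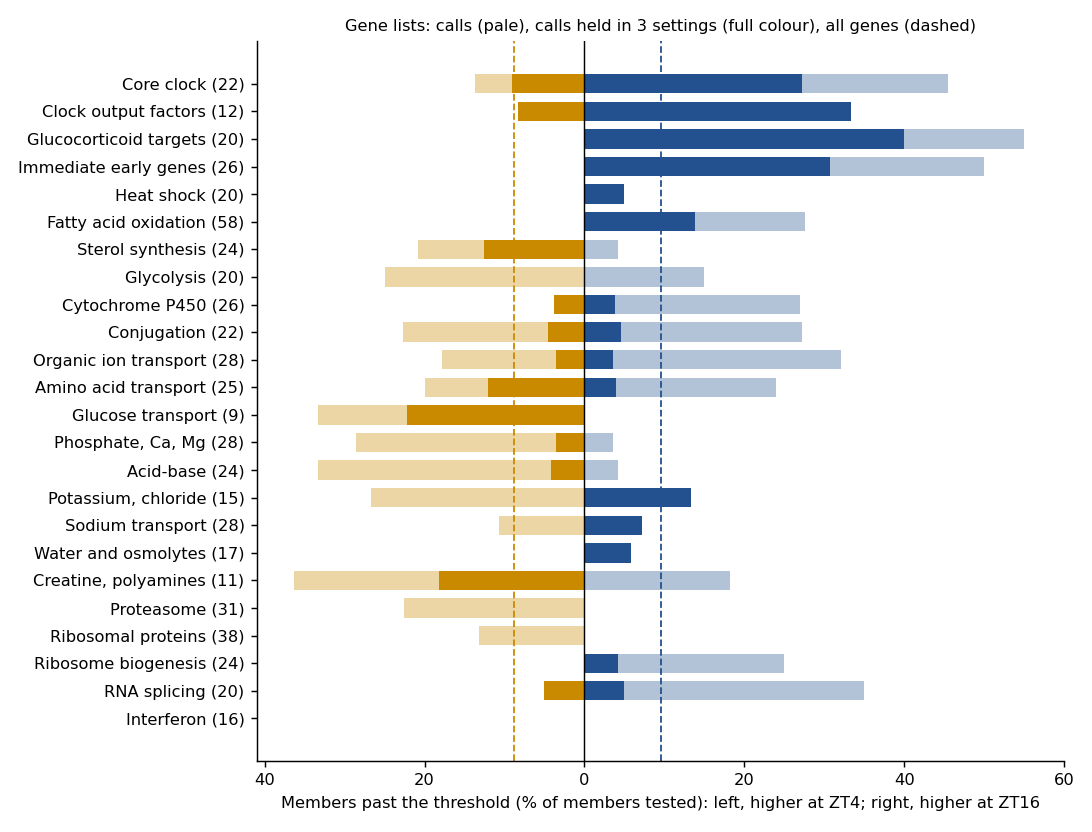
Share of the members tested in each gene list (number in brackets) that were called higher at ZT4 (left) or ZT16 (right), in percent, with all calls pale and calls held in 3 settings in full colour. Dashed lines mark the share of all genes tested, 8.76% and 9.53%. Glucocorticoid targets (11 of 20) and immediate early genes (13 of 26) reach furthest to the right, with 0 calls to the left.

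Calls among solute transport genes are given by solute, beside 9.53% of all genes higher at ZT16 and 8.76% higher at ZT4. For sodium, 2 of 28 genes were higher at ZT16 and 3 at ZT4, and the held calls were Sgk1 and Tsc22d3, both regulators in the collecting duct. The carriers that define the list did not pass. Slc9a3 (NHE3) was 51.7 ± 3.18 CPM at ZT4 and 47 ± 5.7 CPM at ZT16 (SD, n = 4 each; edgeR adjusted p = 0.63). Slc12a1 (NKCC2) was 1022 ± 279.5 CPM at ZT4 and 1080.0 ± 110.1 CPM at ZT16 (edgeR adjusted p = 0.82). Slc12a3 (NCC) was 1568, 1239, 1312 and 1314 CPM at ZT4 and 499, 1306, 1094 and 1064 CPM at ZT16 (edgeR adjusted p = 0.064), and ZT16 replicate 1 stood far below the other 7 libraries. The sodium channel subunit Scnn1b was higher at ZT4 (135, 98.6, 97.6 and 112 CPM at ZT4 and 57.5, 92.4, 78.9 and 83.9 CPM at ZT16; log2 change -0.50, SE 0.13, adjusted p = 0.01) and Scnn1a was not called (adjusted p = 0.54). For water and osmolytes 1 of 17 genes was called, the taurine carrier Slc6a6 (276, 322, 355 and 330.5 CPM at ZT4 and 397, 452, 549 and 523 CPM at ZT16; log2 change 0.58, SE 0.14, adjusted p = 0.0053), which was held. Aqp2, the vasopressin-regulated water channel, was 598 ± 49.1 CPM at ZT4 and 609 ± 43.6 CPM at ZT16 (log2 change 0.025, SE 0.16, adjusted p = 0.93).

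Acid-base, phosphate, calcium and magnesium genes leaned to ZT4, beside 8.76% of all genes higher at ZT4 and 9.53% higher at ZT16. Of 24 acid-base genes 8 were higher at ZT4 and 1 at ZT16 (median log2 change -0.28), but of these only Slc26a6, an anion exchanger of the brush border, was held (12.8, 10.4, 12.2 and 12.5 CPM at ZT4 and 6.63, 8.24, 6.61 and 5.78 CPM at ZT16; log2 change -0.81, SE 0.10, adjusted p = 8.3e-06). Of 28 phosphate, calcium and magnesium genes 8 were higher at ZT4 and 1 at ZT16 (median -0.26), and Slc34a3 (NaPi-IIc), a phosphate carrier of the brush border, was held (119, 90.3, 89.1 and 105 CPM at ZT4 and 55.4, 68.4, 61.1 and 56.6 CPM at ZT16; log2 change -0.74, SE 0.13, adjusted p = 4.7e-04). The main phosphate carrier Slc34a1 (NaPi-IIa) was 6469.9, 5563, 5221 and 5919 CPM at ZT4 and 3906, 5087, 4650.1 and 5090.1 CPM at ZT16 (log2 change -0.31, SE 0.096, adjusted p = 0.028), not held. Kl, the FGF23 co-receptor klotho, was 939.9, 714, 704 and 865 CPM at ZT4 and 313, 724, 529.7 and 535 CPM at ZT16 (log2 change -0.62, SE 0.17, adjusted p = 0.014), also not held. Its lowest value again came from ZT16 replicate 1. Potassium and chloride genes had calls on both sides, and at ZT16 their number was near the share of all genes. Of 15 genes 2 were higher at ZT16 and held, among them the potassium channel Kcnk1 (108, 125, 125 and 99.3 CPM at ZT4 and 138, 165, 171 and 160.0 CPM at ZT16; log2 change 0.47, SE 0.08, adjusted p = 2.2e-04). The 4 genes higher at ZT4, among them Kcnj1 (ROMK, -0.38, SE 0.10), were not.

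Amino acid carriers went in both directions, with 6 of 25 higher at ZT16 and 5 higher at ZT4 (9.53% and 8.76% of all genes). Slc6a19 (B0AT1), the neutral amino acid carrier of the brush border, was 318, 409, 399.5 and 431 CPM at ZT4 and 139.6, 218, 199 and 192 CPM at ZT16 (log2 change -1.06, SE 0.20, adjusted p = 8.9e-04). Slc7a8 (LAT2), at the basolateral side, was 279, 238, 254 and 287 CPM at ZT4 and 120.3, 175, 151 and 150.5 CPM at ZT16 (log2 change -0.83, SE 0.13, adjusted p = 1.3e-04), and its heavy chain Slc3a2 was 395, 345, 322 and 379 CPM at ZT4 and 182, 230.5, 217 and 229 CPM at ZT16 (log2 change -0.75, SE 0.10, adjusted p = 2.8e-05). These 3 calls were held and none overlapped. Carriers of organic ions gave 9 calls higher at ZT16 and 5 higher at ZT4 among 28, of which Slco3a1 (52.5, 50.7, 45.6 and 53.5 CPM at ZT4 and 69.4, 79.7, 88.9 and 89.6 CPM at ZT16; log2 change 0.69, SE 0.10, adjusted p = 4.3e-05) and Abcg2, the urate and drug exporter (418, 416, 389 and 430.3 CPM at ZT4 and 241, 299, 277 and 274 CPM at ZT16; log2 change -0.60, SE 0.091, adjusted p = 7.4e-05), were held. The main organic anion carriers Slc22a6 (OAT1) and Slc22a8 (OAT3) did not pass (adjusted p of 0.13 and 0.23).

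Detoxification genes had many calls and few that were held, beside 9.53% of all genes higher at ZT16 and 8.76% higher at ZT4. Of 26 cytochrome P450 genes 7 were higher at ZT16 and 1 at ZT4, and Cyp2a5 (98.7, 131, 121 and 114 CPM at ZT4 and 242, 311, 365 and 345 CPM at ZT16; log2 change 1.44, SE 0.20, adjusted p = 3.1e-05) and Cyp2s1 (-0.54, SE 0.083) were held. Cyp2a4 (0.91, SE 0.22) is a near copy of Cyp2a5, and the split of reads between them may be uncertain. Cyp2e1 was 71.8, 109, 103 and 135 CPM at ZT4 and 619, 117, 534 and 264 CPM at ZT16, high in ZT16 replicates 1 and 3, and its call was not held. Of 22 conjugation genes 6 were higher at ZT16 and 5 at ZT4, and Nat8, an N-acetyltransferase of the proximal tubule, was 126, 115, 102 and 81.8 CPM at ZT4 and 141, 227, 177 and 202 CPM at ZT16 (log2 change 0.81, SE 0.21, adjusted p = 0.01). Gatm, the first enzyme of creatine synthesis, was 1513, 1329.6, 1350.4 and 1829 CPM at ZT4 and 545, 788, 670.4 and 836 CPM at ZT16 (log2 change -1.08, SE 0.17, adjusted p = 9.5e-05), without overlap and held. Azin1, which relieves ornithine decarboxylase of its inhibitor, was held as well (-0.56, SE 0.085). Gatm and Azin1 were among the 4 of 11 creatine and polyamine genes that were higher at ZT4, and 2 were higher at ZT16.

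Lists of housekeeping genes were compared in the same way. Ribosomal protein genes gave 5 calls among 38 (13.2%), all higher at ZT4 (median log2 change -0.19), proteasome genes 7 among 31 (22.6%), all higher at ZT4 (median -0.15), and respiratory chain genes 1 among 30 (3.33%), higher at ZT4 (median -0.16). The share of all genes higher at ZT4 was 8.76%, and 0 of these calls were held. Ribosome biogenesis gave 6 among 24 (25% beside 9.53% of all genes), all higher at ZT16, with Polr1a, the large subunit of RNA polymerase I, held (22.2, 22.1, 23.6 and 20.5 CPM at ZT4 and 29.4, 30.2, 30.2 and 30.6 CPM at ZT16; log2 change 0.45, SE 0.074, adjusted p = 1.8e-04). Among 20 splicing genes 7 were higher at ZT16 and 1 at ZT4, with Srsf11 (0.38, SE 0.062) and Srsf3 (-0.40, SE 0.072) held on opposite sides. Interferon genes gave 0 calls among 16 by the same edgeR test, with log2 changes of -0.19 to 0.19 and a median of -0.099, and mitosis genes gave 0 among 18, with Mki67 at 2.91 ± 0.908 CPM at ZT4 and 3.89 ± 1.3 CPM at ZT16 (SD, n = 4 each). On both lists the number was also 0 at an unadjusted p under 0.05 and by DESeq2 and limma.

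Markers of several kidney cell types differed between the times. The sum of 7 markers of the S1 and S2 segments of the proximal tubule was 12075 to 13667 CPM at ZT4 and 7877 to 11397 CPM at ZT16, without overlap and lowest in ZT16 replicate 1. Of the 7, 2 were called higher at ZT4, and Gatm was held. This sum was lower at ZT16 beside the proximal carriers of glucose, phosphate and amino acids that were higher at ZT4, and its part in their values was not tested. Slc34a1, named above as a marker of the proximal tubule, is also among these carriers, so the sum and the carriers need not be independent. Of 8 podocyte markers 2 were higher at ZT4 and 0 at ZT16, and 1 of these calls was held. Members went both ways, with 3 higher at ZT4 and 2 higher at ZT16 at an unadjusted p under 0.05 with edgeR. The summed podocyte level was 530.5 to 551 CPM at ZT4 and 437 to 521 CPM at ZT16. Of 7 markers of the thick ascending limb 2 were higher at ZT4 and 0 at ZT16. Their sum overlapped, at 5258 to 7234 CPM at ZT4 and 5736 to 7300 CPM at ZT16. Cldn10, a claudin on this list, was 251, 298, 289.6 and 272 CPM at ZT4 and 173, 205, 179 and 184 CPM at ZT16 (log2 change -0.58, SE 0.062, adjusted p = 8.5e-07), held in all 4 settings. Of 6 markers of the distal convoluted tubule 3 were higher at ZT4 and their sum was 2898 to 3601 CPM at ZT4 against 1423 to 2943 CPM at ZT16, lowest in ZT16 replicate 1. Of 7 markers of the S3 segment of the proximal tubule 3 were higher at ZT16 and 1 at ZT4, and their sum was 712 to 814 CPM against 1028 to 1207 CPM. Except for Cldn10, 0 of the calls on the distal convoluted tubule, S3 and thick ascending limb lists were held.

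Several of the genes held in all 4 settings belong to none of these lists. Fabp7, a fatty acid binding protein known from brain, was 17.1, 16, 12.9 and 18.3 CPM at ZT4 and 4.21, 4.51, 5.12 and 3.36 CPM at ZT16 (log2 change -1.90, SE 0.15, adjusted p = 1.3e-09). Ethe1, the sulfur dioxygenase of mitochondria, was 231, 209, 187 and 226 CPM at ZT4 and 85.9, 106, 101 and 97.9 CPM at ZT16 (log2 change -1.13, SE 0.13, adjusted p = 2.5e-06). Neither overlapped between the groups. The following were named after their values were seen. BC018473, a transcript without a known role, was 8.06, 7.57, 8.92 and 8.83 CPM at ZT4 and 68.4, 61.7, 46.8 and 56.5 CPM at ZT16 (log2 change 2.81, SE 0.26, adjusted p = 4.9e-08). Nudt19, a peroxisomal hydrolase of coenzyme A, was 120.1, 128, 106 and 109.8 CPM at ZT4 and 192, 269.9, 317 and 295 CPM at ZT16 (log2 change 1.21, SE 0.15, adjusted p = 4.2e-06). Ddc, the decarboxylase that makes dopamine in the proximal tubule, was 207, 211, 192 and 207 CPM at ZT4 and 108, 127, 131 and 128 CPM at ZT16 (log2 change -0.73, SE 0.078, adjusted p = 8.7e-07). Nat8f5, a relative of Nat8 in a cluster of similar genes whose reads may be split uncertainly, was 25.5, 23.3, 19.2 and 11.5 CPM at ZT4 and 47.6, 90.7, 68.2 and 68.8 CPM at ZT16 (log2 change 1.79, SE 0.29, adjusted p = 1.3e-04). Ces1d, a carboxylesterase, was 524, 500.0, 448 and 428 CPM at ZT4 and 759.6, 1514, 1182 and 1141 CPM at ZT16 (log2 change 1.28, SE 0.20, adjusted p = 9.5e-05), and in each of these 5 genes every library of the higher group lay above every library of the lower group. Lingo4, a leucine-rich repeat membrane protein, was 0.348, 0.438, 0.342 and 0.0916 CPM at ZT4 and 2.8, 2.23, 2.47 and 1.45 CPM at ZT16 (log2 change 2.87, SE 0.42, adjusted p = 5.4e-05), and it shares exon bases with Gm43401 on the opposite strand.

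Markers of other tissues were among the largest rises. Among the 15 largest were the adrenal genes Cyp11b1 (log2 change 13.49), Cyp21a1 (11.97), Th (9.63) and Chga (9.36). In ZT16 replicates 1 and 4 Cyp11b1 was 263 and 297 CPM and Cyp21a1 was 625 and 464 CPM. None of these 4 genes was held. The 3 settings were built on the adrenal, hepatocyte and adipocyte sums, so that outcome was largely set in advance for genes of these lists. Fmo5 (19.7, 19.9, 21.8 and 30.2 CPM at ZT4 and 127, 34.3, 118 and 41.2 CPM at ZT16), Apoa4 (7.17, 5.19, 5.54 and 7.79 CPM at ZT4 and 36.5, 9.13, 40.5 and 10.8 CPM at ZT16) and Angptl8 (3.63, 2.44, 3.26 and 6.14 CPM at ZT4 and 24.3, 2.58, 25.7 and 5.46 CPM at ZT16) were highest in ZT16 replicates 1 and 3 and were not held. Adipocyte genes such as Cidec (18.6, 6.7, 5.77 and 17.7 CPM at ZT4 and 67.3, 42.8, 40.7 and 63.6 CPM at ZT16; log2 change 2.13, SE 0.48, adjusted p = 0.0036) and Lep (2.30, SE 0.54) were higher in all 4 ZT16 libraries, and their calls were not held.

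The contrast was set against the other pairs 12 h apart in young mice. ZT12 against ZT0 gave 2402 calls (14.5%) and ZT20 against ZT8 gave 3748 (22.7%). Of the 3022 genes called between ZT4 and ZT16, 816 were also called in the former pair, 1077 in the latter and 327 in both, and 1456 in neither. The pairs use different mice, but all were tested in the same fit. For 43 of the 1456 the change also differed from both other pairs by its own test, 28 of them higher at ZT16 and 15 higher at ZT4. Stc1, the hormone stanniocalcin, was 1 of them, at 5.34, 4.57, 5.05 and 9.38 CPM at ZT4 and 11.4, 12.6, 13.7 and 14.3 CPM at ZT16 (log2 change 1.09, SE 0.20, adjusted p = 6.5e-04). Me3, a mitochondrial malic enzyme, was another, at 73.6, 80.2, 77.2 and 72.7 CPM at ZT4 and 46.2, 64.9, 55.6 and 56.9 CPM at ZT16 (log2 change -0.44, SE 0.068, adjusted p = 9.4e-05). Both were held, but not every gene of this set was. Angptl8 and Fmo5, also among the 43, rose by more than Stc1 (log2 change 1.91 and 1.81) and were not held. Without ZT16 replicates 1 and 3, highest in hepatocyte sum, these changes were 0.058 and 0.72 (edgeR adjusted p of 0.94 and 0.12). Among the falls Rfesd was held, but Smim8 and Mgat2 were not.

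Over the 6 times of day, 792 of the 1574 genes higher at ZT16 (50.3%) had their highest mean at ZT16 and 418 (26.6%) at ZT12, while 1013 of the 1448 higher at ZT4 (70%) peaked at ZT4 and 264 (18.2%) at ZT8. Sgk1 and Tsc22d3 had their highest means at ZT12, with values over ZT0, 4, 8, 12, 16 and 20 of 212, 72.3, 107, 445, 347 and 237 CPM for Sgk1. The values of Tsc22d3 were 44.1, 24.7, 48.2, 129, 117 and 64.1 CPM. Igfbp1, at 13.7, 82.8, 52.3, 24.1, 29.8 and 27.5 CPM, was highest at ZT4 and ZT8. Fabp7 was lowest at ZT12, at 13.6, 16.1, 7.3, 2.62, 4.3 and 7.41 CPM. The means at ZT0 and ZT12 come from 7 mice each and the others from 4, and that ZT4 and ZT16 differ is what chose these genes.

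**Figure D4:**
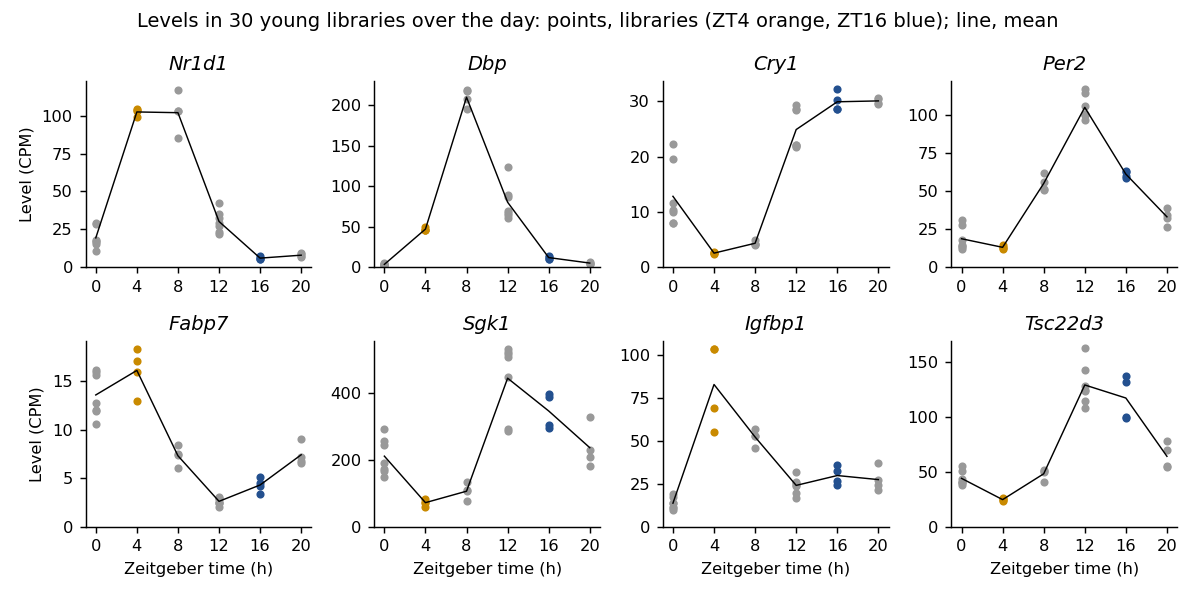
Level (CPM) of 8 genes in each of the 30 young libraries against Zeitgeber time (h), with ZT4 in orange, ZT16 in blue, the other times in grey and a line through the mean of each time. Nr1d1 and Fabp7 are high at ZT4, Dbp peaks at ZT8, Cry1 stays high from ZT16 to ZT20 and Sgk1 is highest at ZT12.

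Whether this contrast was the same in nephritic mice was tested in a joint fit of 57 young and nephritic libraries over 17521 genes. The nephritic mice were older, so age and disease cannot be told apart, and their adrenal marker sums were 6.04 to 8.48 CPM at both times. Their adipocyte sums were 100.2 to 179 CPM at ZT4 and 551 to 881 CPM at ZT16, and their hepatocyte sums 102 to 221 CPM at ZT4 and 11.1 to 29.5 CPM at ZT16, both without overlap, and the part of these markers in the nephritic values was not tested. In this fit 1174 genes were called between ZT4 and ZT16 in young and 347 (1.98%) in nephritic mice, and the difference of the 2 changes passed for 189 genes (1.08%). The number 189 rested on single libraries, since leaving out 1 of the 15 gave 2 (nephritic ZT16 replicate 1) to 275 (young ZT4 replicate 3), and leaving out the young ZT16 pair with the highest adrenal or hepatocyte sums gave 3 and 2. CPM of the joint fit are scaled together and differ slightly from those above.

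The clock genes Per3, Per2 and Npas2 were among those that differed. Per3 was 21.6, 25.9, 28.1 and 24.9 CPM in the young ZT4 libraries and 36.2, 34.2, 32.8 and 37.5 CPM in the young ZT16 libraries, but 40.4, 33.6, 32.4 and 32.2 CPM in the nephritic ZT4 libraries and 9.02, 9.02 and 11 CPM in the nephritic ZT16 libraries. It was higher at ZT16 in each young library (0.49, SE 0.26 in this fit) and was lower at ZT16 in each nephritic library (log2 change -1.84, SE 0.29), a difference of 2.33 (adjusted p = 0.0043). Per2 was 14.3, 12.8, 15.1 and 13.6 CPM in the young ZT4 libraries and 65.7, 65.6, 62.1 and 63.2 CPM in the young ZT16 libraries, but 26.5, 19.5, 20.5 and 20.5 CPM in the nephritic ZT4 libraries and 17.6, 24.4 and 39.7 CPM in the nephritic ZT16 libraries, where the nephritic groups overlapped (difference 1.88, SE 0.44, adjusted p = 0.032). Npas2 was 11.8, 12.2, 13.2 and 11.1 CPM in the young ZT4 libraries and 10.5, 10.4, 9.59 and 8.05 CPM in the young ZT16 libraries, but 6.02, 6.49, 7.16 and 9.32 CPM in the nephritic ZT4 libraries and 36.6, 21.1 and 25.1 CPM in the nephritic ZT16 libraries, higher in each nephritic ZT16 library than at ZT4 (difference -2.26, SE 0.54, adjusted p = 0.034). Fabp7, which fell by far more in the young, was 8.76, 11.7, 13.3 and 11.9 CPM in the nephritic ZT4 libraries and 9.38, 8.62 and 8.95 CPM in the nephritic ZT16 libraries (difference -1.59, SE 0.32, adjusted p = 0.018). Ethe1 was 94.9, 139.7, 136 and 104 CPM in the nephritic ZT4 libraries and 141, 127 and 142 CPM in the nephritic ZT16 libraries, where the groups overlapped (difference -1.37, SE 0.26, adjusted p = 0.015).

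For Nr1d1, Cry1 and Sgk1 the difference did not pass. Nr1d1 was 71.5, 58.9, 59.4 and 44.8 CPM in the nephritic ZT4 libraries and 23.3, 7.06 and 5.07 CPM in the nephritic ZT16 libraries (difference -1.82, SE 0.57, adjusted p = 0.076), Cry1 was 3.85, 4.16, 4.08 and 5.21 CPM in the nephritic ZT4 libraries and 15.5, 20.8 and 23.9 CPM in the nephritic ZT16 libraries (difference 1.32, SE 0.37, adjusted p = 0.058) and Sgk1 was 125, 103, 106 and 149 CPM in the nephritic ZT4 libraries and 284, 181 and 162 CPM in the nephritic ZT16 libraries (difference 1.44, SE 0.65, adjusted p = 0.2). Nr1d1 was lower at ZT16 in each nephritic library, and Cry1 and Sgk1 were higher there, with a smaller gap between the group means than in young mice. A p that misses the threshold does not show that the changes were equal.

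**Figure D5:**
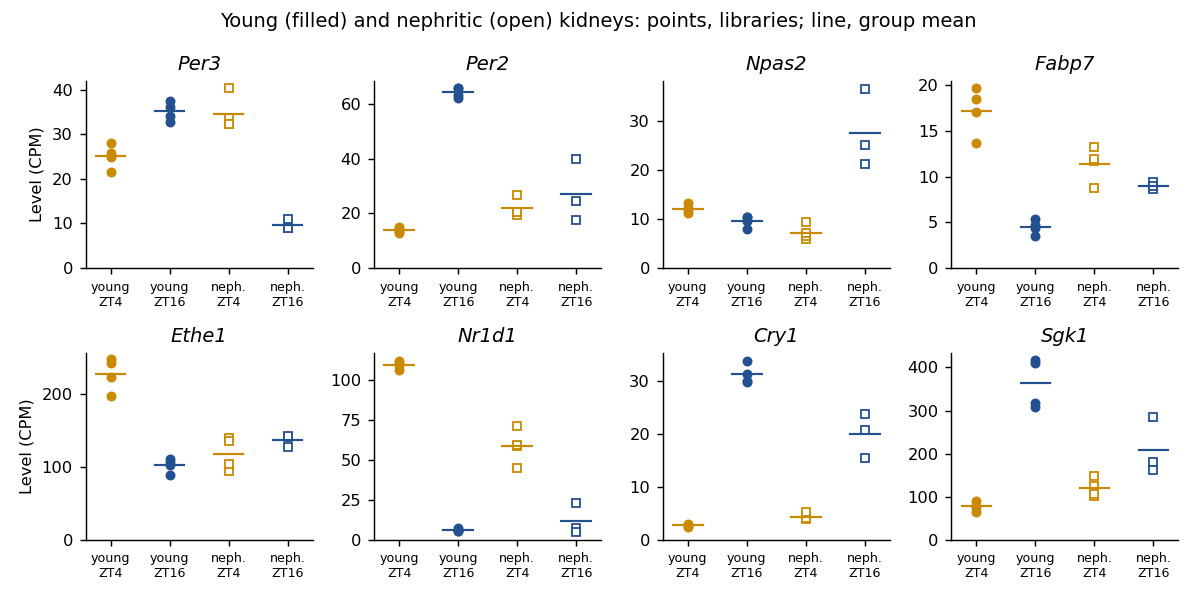
Level (CPM of the joint fit) of 8 genes at ZT4 (orange) and ZT16 (blue) in young (filled circles, 4 libraries each) and nephritic kidneys (open squares, 4 and 3 libraries), with a line at each group mean. Per3 is higher at ZT16 in young and lower in nephritic kidneys, while Nr1d1 is lower and Cry1 higher at ZT16 in both.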

How the data were processed

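RNASeq of perfused kidneys was analysed in 30 young libraries, 8 of them at ZT4 and ZT16, with 27 nephritic libraries for the joint fit. Per the methods, the authors used Burrows-Wheeler alignment and kept unique alignments, while the submitters' processing notes name HISAT and mm10. The deposited values are whole-number counts per gene symbol, not normalized. The 8 libraries hold 25617028 to 33912836 counts.

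Here edgeR 4.0.16 was run under R 4.3.3, with DESeq2 1.42.0 and limma 3.58.1 as alternatives. A minimum of 100 counts per gene over a fit was set, and counts were scaled with TMM factors and tested by edgeR's quasi-likelihood F test with time point and sequencing set as terms, at a Benjamini-Hochberg adjusted p of at most 0.05. All 8 libraries belong to Set 2, so the set term acts only through other time points. SE is the log2 change divided by the root of F. On simulated data for this contrast with 16521 genes, 46 of 79 log2 changes of 0.5, 46 of 53 of 1 and 67 of 68 of 2 were recovered with 4 false calls. The simulation changed only these genes, drew each gene independently and held no RNA of other tissues. Its false calls therefore do not bear on the marker sums or on a contrast with many changed genes. ZT4 replicates 2 and 3 were the most alike, with a chi-square of 6.82 per degree of freedom, and were kept as separate samples. The labels do not say that replicates came from separate cultures or litters, so p-values measure the spread between these samples. Marker covariates used log2 of the summed CPM plus 1.

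Named genes were the 15 largest changes in each direction among called genes with at least 1 CPM and without overlap, the core clock, PAR bZIP and Nfil3 genes, up to 4 members in each direction and the defining genes of each list, the 5 smallest p for the difference from nephritic mice, and the 5 largest changes in each direction that differed from both other 12 h pairs. Some genes that these rules name are not reported here. The members, lists and tests were chosen with earlier results of these data known, and the hepatocyte list and the marker settings were added after seeing these libraries. Promoter sequences and positions came from RefSeq of GRCm38.p6, with 194 of 242 named genes matched, and exon overlaps from GENCODE vM21.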

Additional observations from a re-analysis of the deposited data

Results flagged for a closer look

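In 35 of 522 groups of 4 libraries, a library stood apart from the other 3 by a gap that passes Dixon's 95% limit, and chance gives about 1 in 20. The CPM of that library are in brackets. ZT4 replicate 1 was highest for Th (0.0316, beside 0 in the others) and Gm128 (4.55). ZT4 replicate 1 was lowest for Per1 (12), Dnajb4 (22.2), Dusp1 (76.4), Slc20a1 (36.7), Vcam1 (5.09), Myh1 (1.67) and Hspa1b (44.5). ZT4 replicate 2 was highest for Cyp11b1 (0.0313, beside 0 in the others). Values of Th and Cyp11b1 this near 0 rest on very few reads. ZT4 replicate 4 was highest for Cyp21a1 (0.153), Dbp (49.1), Clock (59.5), Pck1 (3783), Id3 (100.3), Rbp4 (54.4), Sdc1 (30.5), Stc1 (9.38), the summed lymph node, pancreas and liver markers (2158) and the summed hepatocyte markers (2474). ZT4 replicate 4 was lowest for Gjb6 (2.14) and G6pc (538). ZT16 replicate 1 was highest for Srsf6 (224) and the summed thin limb markers (217). ZT16 replicate 1 was lowest for Csnk1d (122), Kcne1 (9.88), Slc20a2 (39.995), Slc2a5 (55.8), Psmd8 (115), Psmd2 (174) and Nr3c1 (81.4). ZT16 replicate 2 was highest for Tmem86a (53.2) and Arrdc4 (18.3). ZT16 replicate 2 was lowest for Slc22a13 (141). ZT16 replicate 4 was highest for Cpa1 (5.84). The hepatocyte sum was 52.8 to 362 CPM in the other ZT4 libraries, and ZT16 replicate 1 also had the highest adrenal and hepatocyte sums. Their part in these values was not tested.

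The change from ZT4 to ZT16 differed between young and nephritic mice for 12 named genes, by the interaction term of edgeR's quasi-likelihood test with adjusted p up to 0.05. The young minus nephritic log2 change was positive for Per2 (1.88), Per3 (2.33), A930033H14Rik (1.76), Gtf2a1 (0.47) and Apoa4 (2.35), and negative for Fabp7 (-1.59), E030024N20Rik (-2.45), Ethe1 (-1.37), Npas2 (-2.26), Slc3a2 (-0.73), Srebf2 (-0.55) and Aqp2 (-1.46). Aqp2, the water channel, was level in young mice and higher at ZT16 in each nephritic library, and Srebf2 and Slc3a2 fell in young mice while their nephritic groups overlapped. Apoa4 was highest in young ZT16 replicates 1 and 3, those with the highest hepatocyte sums, and its part in this difference was not tested. The count behind these genes, 189, fell to 2 without nephritic ZT16 replicate 1.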

How the results depend on the processing

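The 3022 calls between ZT4 and ZT16 became 3068 with RLE size factors, 3493 with DESeq2, 2818 with limma, 2714 without a filter on low counts, 3070 with a filter of 1 CPM in 4 libraries, 2669 in the 8 libraries alone and 2756 in Set 2. They fell to 1980 without the set term, 1174 with the nephritic libraries in the fit, 1095 at an adjusted p of 0.01 and 953 at a fold of at least 1.5. Leaving out each replicate in turn gave 1694 (without ZT16 replicate 1) to 3359 (without ZT16 replicate 2), and 1827 without ZT4 replicate 1. Settings chosen after seeing the data gave 697 without ZT16 replicates 1 and 4, 697 without ZT16 replicates 1 and 3, 108 without ZT16 replicates 1, 3 and 4, 1023 with adrenal and adipocyte covariates and 1068 with hepatocyte markers as well. The cause was not tested, apart from the smaller number of libraries in some settings. For ZT20 against ZT8, 3748 became 2398 without the set term.

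The 189 genes that differed from nephritic mice became 171 with RLE, 78 without a filter, 776 with DESeq2 and 3144 in the 15 libraries alone. Leaving out each replicate in turn gave 2 to 275, with 4 without young ZT4 replicate 1, 82 without replicate 2 and 33 without replicate 4, 3, 26 and 27 without young ZT16 replicates 1, 3 and 4, 3, 33, 106 and 7 without nephritic ZT4 replicates 1 to 4, and 2 and 13 without nephritic ZT16 replicates 1 and 3. Without the ZT16 pair of highest adrenal sums it was 3, and without that of highest hepatocyte sums 2. These are counts and do not say which genes remained.

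Of 5309 values of 242 named genes under alternatives, 4203 kept direction and side of the threshold, 1072 lost the call, 22 gained it and 12 changed sign. With adrenal and adipocyte covariates the log2 change was -0.52 for Chgb, -0.41 for Hsd3b1, -0.58 for Mgst2 and -1.53 for Cpa1, and with hepatocyte markers as well -0.38, -0.28, -0.58 and -0.036. With ZT16 replicate 2 alone it was -0.019 for Pfkfb1, -0.50 for Rbp4, -0.013 for Sdc1 and -0.59 for Angptl8.

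No paired analysis was possible because replicate numbers were given in accession order and only name the samples. With 4 libraries a time point, changes of less than 1.5-fold were often not detectable.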

Other observations

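Further lists gave a few calls, to be read beside the 9.53% of all genes called higher at ZT16 and the 8.76% called higher at ZT4. Of 32 genes of the endoplasmic reticulum, 1 was higher at ZT16. This was Herpud1, which helps clear misfolded proteins (log2 change 0.78, SE 0.20) and was held, and 3 were higher at ZT4 and not held, Pdia6, Canx and Pdia3, which fold proteins, while Hspa5 was -0.23 (SE 0.20, adjusted p = 0.45 with edgeR's quasi-likelihood test). Of 19 antioxidant genes 3 were higher at ZT16, among them Gclc (0.68, SE 0.21) and Gclm (0.30, SE 0.092) for glutathione synthesis, and 2 at ZT4, among them Nqo1 (-0.41, SE 0.12), and 0 of these calls were held. Of 24 autophagy genes 4 were higher at ZT4, among them Lamp2 (-0.34, SE 0.081), not held, and Bnip3 was higher at ZT16 (0.31, SE 0.070) and held.

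Growth factor genes gave 4 calls higher at ZT16 and 1 at ZT4 among 22. The matrix protein Ctgf was 19.4, 33.7, 35.9 and 29.9 CPM at ZT4 and 64.8, 66.2, 72.2 and 51.5 CPM at ZT16 (log2 change 1.10, SE 0.21), without overlap and held, and Vegfa was 0.35 (SE 0.075), not held. Among renin and vasoactive genes the succinate receptor Sucnr1 (-0.66, SE 0.17) was higher at ZT4 and not held. The thyroid hormone receptor Thra was 74.1, 70.5, 75.6 and 64.0 CPM at ZT4 and 44.6, 47.8, 48.3 and 50.2 CPM at ZT16 (log2 change -0.57, SE 0.069), without overlap, and shares exon bases with Nr1d1 on the opposite strand. The muscle myosin Myh1 was 1.67, 2.47, 2.47 and 2.38 CPM at ZT4 and 5.25, 7.32, 9.65 and 7.17 CPM at ZT16 (log2 change 1.71, SE 0.25), held, while 3 of 6 muscle markers had enough counts to be tested. Myh1 was the 1 edgeR call among these 3. At an unadjusted p under 0.05 with edgeR, 2 of the 3 were higher at ZT16 and 1 was higher at ZT4.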
